A study of Mus musculus with 2 samples.

Results

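Mir221 and Mir222 are a pair of microRNA genes that lie close together on the X chromosome, on the same strand. They were taken as the rows of the deposited count files whose gene identifier carries either name in GENCODE M21, which gave 2 of 2202 microRNA genes. Both were measured in the gastrocnemius, the large calf muscle, of male adult mice aged 8 to 10 months, whose strain is given as 5xFAD/CAST. The strain name joins 5xFAD, a transgenic line that models amyloid deposition in the brain, with CAST, a wild-derived inbred strain. No label tells whether the animals carried the transgene. The series holds 1 group of 2 libraries of RNA below 30 bases, numbered as biological replicates 1 and 2. Their tissue samples point to the same donor record, so part of the spread between them may be technical, and there was no second condition to compare with.

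MicroRNAs are short RNAs cut from hairpin precursors. They bind messenger RNAs through the seed, bases 2 to 8 of the mature strand, and lower their output. miR-221 and miR-222 are cut from a common transcript and share their seed. They are known for repressing the cell cycle inhibitor Cdkn1b (p27) and the receptor Kit, are abundant in vascular smooth muscle and endothelial cells, and in muscle are known to be higher in dividing myoblasts than in differentiated fibres. The libraries here are whole adult muscle with no time course, so that decline was not measured.

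The mature strands are shown first, with bases 2 to 8 in capitals, because the shared seed is what makes these genes a pair. They were copied from the RefSeq table (GRCm38.p6, 5′ to 3′), which held both genes.
miR-221-3p: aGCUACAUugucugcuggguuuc
miR-222-3p: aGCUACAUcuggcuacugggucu
miR-221-5p: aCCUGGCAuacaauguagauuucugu
miR-1928: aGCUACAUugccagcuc
The 3p strands are each 23 bases long and are identical over their first 8 bases. Over the whole length, set side by side without gaps, 11 of 23 positions match. A second shared run, of 6 bases, starts at base 15 of miR-221-3p and at base 16 of miR-222-3p. Of 1738 mature strands in the table, 3 carry this seed. The remaining one is miR-1928, from Mir1928 on chromosome 1, which had no read in either library (3 reads would be 2.59 CPM in replicate 1 and 2.51 CPM in replicate 2). The seed of miR-221-5p, the other strand of the Mir221 hairpin, occurs in 1 mature strand, its own.

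Mir221 (ENSMUSG00000065422.1) lies at chrX:19146294-19146388 of mm10 and Mir222 (ENSMUSG00000065471.1) at chrX:19146893-19146971, both on the minus strand. Mir222 is thus transcribed first, and 504 bases separate the hairpins. GENCODE M21 places both between genes: 0 other genes overlap the stretch from the start of one to the end of the other. The nearest gene upstream is Gm14636, a processed transcript on the same strand that ends 10.0 kb away. The hairpins follow, with the 3p strand in capitals, to show where the seed-bearing strand sits in each precursor.
Mir221: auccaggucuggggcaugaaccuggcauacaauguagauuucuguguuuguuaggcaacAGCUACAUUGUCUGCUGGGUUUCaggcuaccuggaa
Mir222: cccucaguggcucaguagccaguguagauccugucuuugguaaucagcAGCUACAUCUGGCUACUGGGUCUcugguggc
In both, the capitals lie in the second arm. A predicted minimum free energy fold gave Mir221 38 base pairs at -42.8 kcal/mol and Mir222 28 base pairs at -40.7 kcal/mol, with 21 and 19 of the 23 bases of the 3p strand paired.

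**Figure D1:**
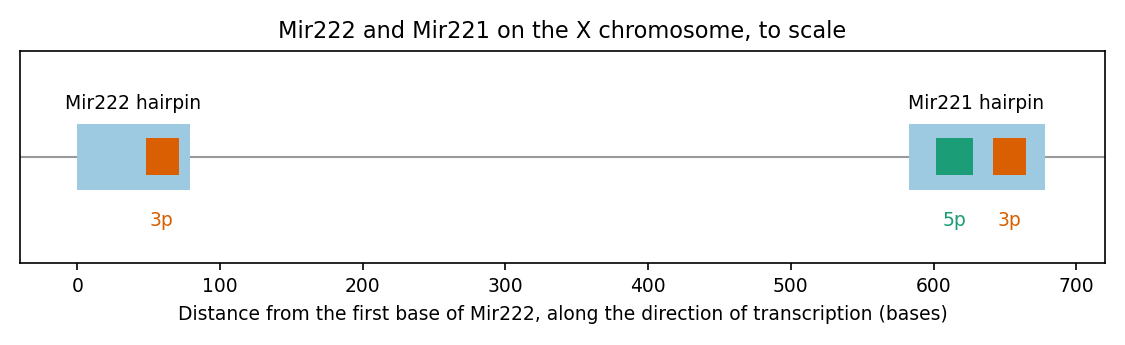
Map of the pair to scale, with distance in bases from the first base of Mir222 along the direction of transcription. Pale blocks are the hairpins, orange blocks the 3p strands and the green block the 5p strand of Mir221; a gap of 504 bases lies between the hairpins.

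The files count only reads aligned to 1 place, so genes with near-identical copies lose reads. Mir221 shares at most 13 bases in a row with any other microRNA gene, and Mir222 at most 12. Neither has a run of 20 bases at another place. Among 141767 GENCODE transcripts each of the 3 mature strands occurs in 1 gene, its own. The search covered transcripts and not the whole genome. Neither gene had a read on the opposite strand, with 0 in both libraries. The counts are per gene and add the 3p and 5p strands together, so the strands could not be told apart.

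Replicate 1 held 6119818 reads and replicate 2 held 6632802, of which 1157420 and 1193393 were sense reads in microRNA genes. Levels are CPM, the reads of a gene scaled to a common library size over those sense reads. A gene counted as detected at 2 CPM or more in both libraries, which 321 genes reached. The striated muscle microRNA Mir206 stood at 32948 and 32931 CPM in replicates 1 and 2. Of the 9 fixed striated muscle genes 8 were detected, and 0 lacked reads in both libraries. Mir486 had 5152 and 3706 CPM, Mir499 381 and 465 CPM and Mir208b 104 and 142 CPM. Mir1a-2 had 51.8 and 45.2 CPM, Mir133b 23.3 and 8.38 CPM, Mir133a-1 20.7 and 5.03 CPM and Mir1a-1 12.1 and 7.54 CPM. Mir133a-2 had 5 and 0 reads. The Mir1a and Mir133 genes each share 20 or more bases in a row with another microRNA gene. The liver microRNA Mir122 stood at 10.4 and 10.9 CPM, a level like that of Mir1a-1. Intervals throughout are exact (Clopper-Pearson, 95%) and cover counting error only, because copies made by PCR were not told apart by molecular identifiers.

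Mir221 was present at a moderate level in the muscle and Mir222 at a low one. Mir221 had 1042 reads in replicate 1 and 371 in replicate 2. These are 900 CPM (846 to 957) and 311 CPM (280 to 344), with a mean of 606 ± 417 CPM (SD, n = 2). Mir222 had 79 and 24 reads, or 68.3 CPM (54.0 to 85.1) and 20.1 CPM (12.9 to 29.9), with a mean of 44.2 ± 34.0 CPM (SD, n = 2). For both genes replicate 1 was the higher library and the intervals of the libraries did not overlap. How many other genes had intervals apart was not counted, but differences of this direction were common. With total counts, the scale of these CPM, 149 of 321 detected genes differed and 114 were lower in replicate 2 (exact binomial test). Together the pair took 0.0969% of the sense reads in replicate 1 and 0.0331% in replicate 2.

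By mean CPM, Mir221 was 65th of all microRNA genes and Mir222 164th. The genes next above Mir221 were Mir127, at 670 CPM, and Mir101b, at 672 CPM. Those next below were Mir674, at 597 CPM, and Mir872, at 573 CPM. All 4 lie within 1 SD of Mir221, so its place among them is not resolved. Around Mir222 stood Mir301 at 46.6 CPM and Mir154 at 47.7 CPM above, and Snord43 at 43.9 CPM and Mir128-2 at 43.4 CPM below, again within 1 SD.

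Of the 142 microRNA genes on chromosome X, 31 were detected. The most abundant was Mirlet7f-2, followed by Mir322, Mir98, Mir361 and Mir676, with Mir221 in place 7 and Mir222 in place 15. Mirlet7f-2, a let-7 gene, had 5965 and 4683 CPM, and Mir322, linked to cell cycle exit in muscle precursors, 2584 and 2961 CPM. Mir98, also of the let-7 group, had 2582 and 2509 CPM, Mir361 had 1447 and 1356 CPM, and Mir676 had 1676 and 985 CPM. The pair made up 5.42% of the X-linked sense reads in replicate 1 and 2.25% in replicate 2.

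**Figure D2:**
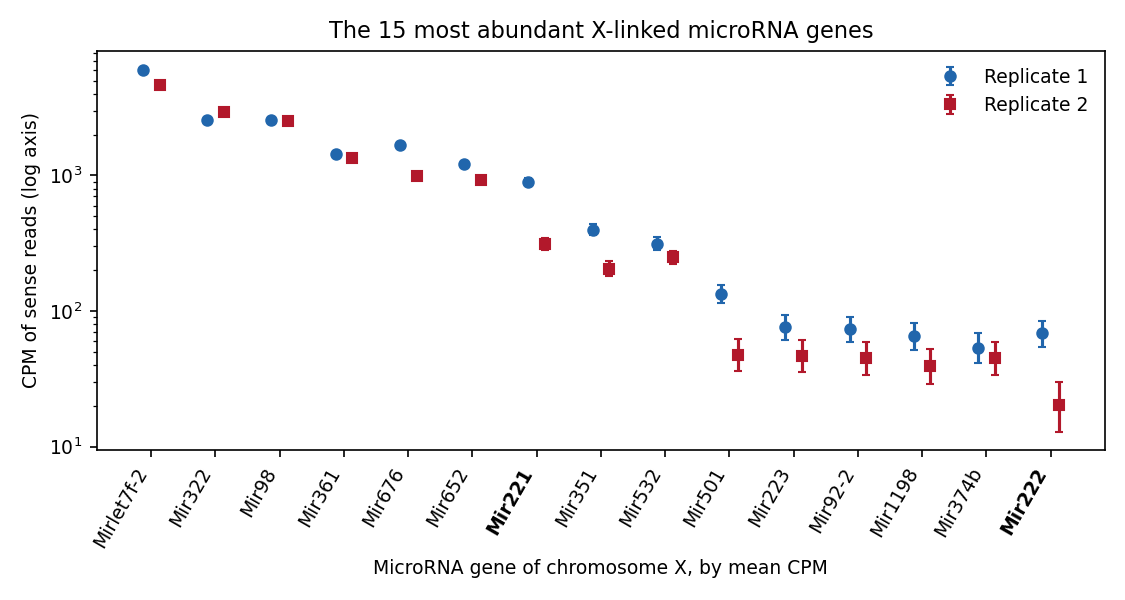
CPM of sense reads (log axis) for the 15 most abundant microRNA genes of chromosome X, with blue circles for replicate 1, red squares for replicate 2 and bars for the exact 95% counting intervals. Mir221 stands at 900 and 311 CPM in replicates 1 and 2, Mir222 at 68.3 and 20.1 CPM and Mir361 at 1447 and 1356 CPM.

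Mir221 was the more abundant member by a wide margin. It had 13.2 reads for each Mir222 read in replicate 1 and 15.5 in replicate 2, a mean of 14.3 ± 1.60 (SD, n = 2). Its share of the pair's reads was 93.0% (91.3 to 94.4) of 1121 reads in replicate 1 and 93.9% (91.1 to 96.1) of 395 reads in replicate 2, with a mean of 93.4% ± 0.687 (SD, n = 2). These are read counts, not scaled by hairpin length (95 and 79 bases). The proportion did not differ between the libraries beyond counting error: the odds ratio of replicate 2 to replicate 1 was 1.17, with an interval of 0.721 to 1.97 (Fisher's exact test, two-sided, p = 0.56). This comparison needs no scaling of the libraries. The interval is wide because Mir222 had 24 reads in replicate 2, and a shift within it would not have been detectable at this depth.

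As a yardstick, the same quantity was taken for every 2 adjacent microRNA genes on 1 strand whose starts lie within 10 kb and which each had 10 or more reads in both libraries. There were 42 such pairs, this one included. From replicate 1 to replicate 2 the ratio of Mir221 to Mir222 moved by 0.23 on the log2 scale. That was the 8th smallest move, against a median of 0.67 and a range from 0.03 to 1.76. Over the 22 pairs with 100 or more reads for each gene, a set that leaves out Mir221 and Mir222, the median was 0.44. In that set the ratio moved least for Mir23b and Mir27b (0.03), Mir30b and Mir30d (0.16) and Mir27b and Mir24-1 (0.18). It moved most for Mir99b and Mirlet7e (1.76), Mir497 and Mir195a (1.70) and Mir16-1 and Mir15a (1.61). Mir23b, Mir27b, Mir24-1 and Mir16-1 each have 20 or more bases in common with another microRNA gene, which makes their counts uncertain. Mir221 and Mir222 share no such run with another microRNA gene. The imbalance between Mir221 and Mir222 was 14.3-fold (geometric mean), and 16 of the 42 pairs were more unequal, with a median of 9.06-fold. These ranks describe the 2 libraries and carry no test. The move of Mir221 and Mir222 rests on 24 reads of Mir222 in replicate 2, so its place among the pairs is not resolved.

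**Figure D3:**
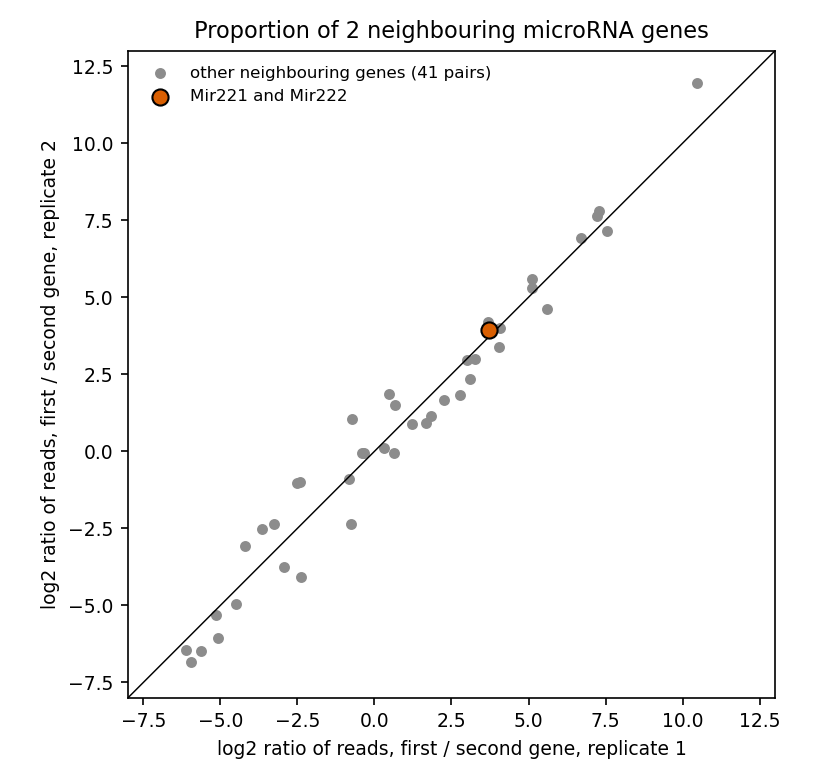
log2 ratio of reads between 2 neighbouring microRNA genes in replicate 1 (horizontal) and replicate 2 (vertical), with 1 point per pair and the line of equal ratios. Mir221 and Mir222 (orange, log2 ratios 3.72 and 3.95) lie near the line; the 41 other pairs are grey.

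Both genes were lower in replicate 2 once the libraries were scaled with TMM, which sets the typical gene to no difference. Mir221 was 2.34-fold higher in replicate 1 (2.08 to 2.64; exact binomial test, adjusted p = 8.2e-49) and Mir222 2.74-fold (1.72 to 4.53; exact binomial test, adjusted p = 1.7e-05). Adjustment was by Benjamini-Hochberg over all 321 detected genes. The test compares these 2 libraries and covers counting error only, so it says nothing of animals in general. In bulk tissue, fewer cells of a type and less RNA per cell cannot be told apart.

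These calls stand on a large background. Of the 321 detected genes 37.4% differed between the libraries, and 18.7% were lower in replicate 2, as were both members, with the same share higher. A call by itself is thus common here, and the size says more. Among the 128 genes at 100 CPM or more Mir221 had the second lowest ratio of replicate 2 to replicate 1, after Mir26a-1, whose 289 and 11 reads are uncertain because at least 20 of its bases in a row recur at a second locus. Its coefficient of variation of CPM, taken without TMM, was 68.8%, against a median of 20.6% over those genes, and 2 of them had a larger one. Without TMM the median log2 ratio over detected genes was -0.30, which enlarges this coefficient for genes lower in replicate 2. With TMM, Mir195a (log2 ratio 2.77), Mir99b (1.73) and Mir15a (1.61) moved further than Mir221, in the other direction. Mir222 had the 8th lowest ratio of all detected genes and Mir221 the 13th. In the range of 50 to 200 reads over both libraries, where Mir222 lies with 103, 11 of 76 genes were lower in replicate 2.

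**Figure D4:**
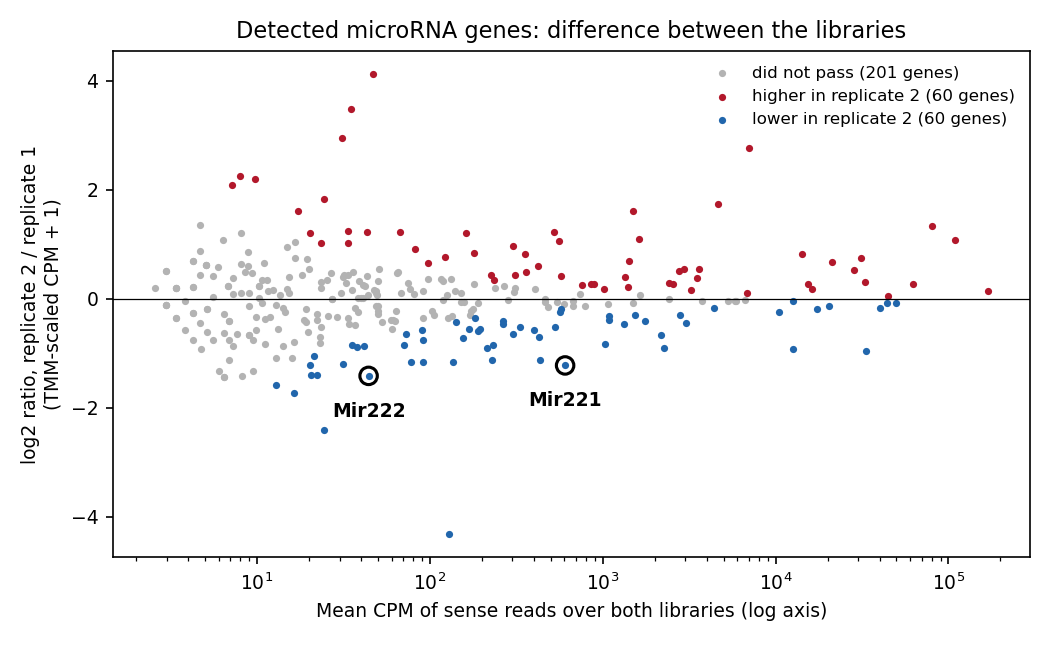
log2 ratio of replicate 2 to replicate 1 (TMM-scaled CPM with 1 added) against mean CPM (log axis) for the 321 detected genes, coloured by the exact binomial test. The circled Mir221 and Mir222 lie at -1.23 and -1.42, both among the 60 genes lower in replicate 2.

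Other genes of the X chromosome differed in both directions. Of its 31 detected microRNA genes, the pair included, 6 were lower and 6 higher in replicate 2. That is close to the share over all 321 detected genes, of which 18.7% passed in each direction. The median log2 ratio was -0.03 on the X chromosome, against -0.01 over all detected genes. With total counts in place of TMM, 12 of the 31 were lower and 3 higher, against 114 lower and 35 higher of all 321. The medians were then -0.34 on the X chromosome and -0.30 over all detected genes. In the edgeR test with the dispersion fixed at 0.01, 4 of the 31 were lower and 1 higher, against 24 lower and 29 higher of all 321. Besides the pair, the genes lower in replicate 2 included Mir676, at 1.38-fold, Mir351, at 1.57-fold, and Mir501, at 2.27-fold. Mir322, which stands in 1 cluster with Mir351, was higher in replicate 2 (2991 and 3534 reads). Mir676 and Mir322 did not pass in the edgeR test (edgeR adjusted p = 0.13 and 0.078).

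The genes most like each member were taken by distance over the 2 libraries on log2(CPM + 1). For Mir221 the nearest were Mirlet7c-2 (676 and 381 CPM, distance 0.51), Mir181b-2 (635 and 235 CPM, 0.65), Mir455 (568 and 283 CPM, 0.68), Mir1249 (670 and 458 CPM, 0.70) and Mir17 (670 and 473 CPM, 0.74). All 5 passed the test as lower in replicate 2, and Mir181b-2 came nearest to Mir221 in size, at 2.18-fold higher in replicate 1, which lies within the interval of Mir221. In the edgeR test with the dispersion fixed at 0.01, Mir455 and Mir181b-2 still passed and the other 3 did not. For Mir222 the nearest were Mir3057 (57.9 and 25.1 CPM, 0.39), Mir365-2 (52.7 and 22.6 CPM, 0.40), Mir505 (49.2 and 21.8 CPM, 0.48), Mir770 (46.7 and 15.9 CPM, 0.63) and Mir3058 (46.7 and 26.8 CPM, 0.67). Of these 4 passed as lower in replicate 2, Mir3058 did not, and Mir505 lies on the X chromosome as well. Of the 4, Mir770 alone passed in the edgeR test at that dispersion. The distance takes in the difference between the libraries as well as the level, so these calls are largely fixed by how the genes were chosen. Of the 8 genes next in level to the members, 2 passed as higher in replicate 2 and the other 6 did not pass.

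MicroRNAs known from myogenic differentiation differed in both directions. Of 18 genes listed as rising in differentiation, 17 were detected, 7 were higher in replicate 2 and 3 lower, where 18.7% of all detected genes passed in each direction. The median log2 ratio of those detected was 0.20. With total counts 6 were higher and 5 lower, against 35 higher and 114 lower of all 321 detected genes, and the median was -0.09. In the edgeR test with the dispersion fixed at 0.01, 3 were higher and 1 lower, against 29 higher and 24 lower of all 321. The genes that were higher included Mir322, given above, and Mir206, whose log2 ratio of 0.31 with TMM was -0.00074 with total counts. Mir29a, a regulator of matrix genes, had 11705 and 16627 CPM, Mir29c 1189 and 2041 CPM, and Mir27b, which targets Pax3, 3316 and 3911 CPM. The fibre-type microRNAs Mir499 and Mir208b, hosted by myosin genes, had 381 and 465 CPM and 104 and 142 CPM. The 3 lower genes were Mir486, at 5152 and 3706 CPM, Mir26a-1, at 250 and 9.22 CPM, and Mir133a-1, at 24 and 6 reads. Mir26a-2 had 162 and 105 CPM and did not pass with TMM, but passed as lower with total counts (exact binomial test, adjusted p = 0.00045). Of 4 other genes known, like Mir221 and Mir222, for holding differentiation back, 0 were lower in replicate 2 with TMM, by the exact binomial test or by edgeR, and 0 at an unadjusted p below 0.05. Mir23a was the 1 that was higher, at 26609 and 35939 CPM. Mir155 had 1698 and 1305 CPM, Mir125b-1 245 and 228 CPM, and Mir125b-2 135 and 115 CPM. With total counts in place of TMM Mir155 passed as lower (exact binomial test, adjusted p = 4.2e-14), with a log2 ratio of -0.38.

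Markers of cell types that could hold the pair moved in different directions. The endothelial marker Mir126a stood at 80768 CPM in replicate 1 and 137673 CPM in replicate 2 and passed as higher in replicate 2, opposite to the pair. The sums that follow are CPM, without TMM; the calls and folds use TMM unless another scaling is named. As background, 18.7% of all 321 detected genes passed in each direction with TMM. With total counts 114 were lower and 35 higher, and in the edgeR test 24 were lower and 29 higher. The smooth muscle markers Mir143 and Mir145a summed to 50799 and 42140 CPM, which with TMM is 1.03-fold higher in replicate 2. Mir143 was higher and Mir145a lower, both were lower with total counts, and neither passed in the edgeR test with the dispersion fixed at 0.01. The 6 fibroblast markers summed to 34502 and 20686 CPM, or 1.35-fold higher in replicate 1 with TMM. Mir21a and Mir10b held most of these reads, so the sum does not stand for the list. Mir21a and Mir10b were lower, of 5 detected, and none was higher. Mir21a had 17726 and 7511 CPM, 1.91-fold higher in replicate 1, and passed in the edgeR test as well. Mir10b had 14057 and 10997 CPM, 1.03-fold higher in replicate 1, and did not pass with edgeR or with DESeq2 size factors. The mesenchymal Mir214 had 2701 and 2164 CPM and did not pass with TMM, but was lower with total counts.

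The 5 leukocyte markers summed to 3481 and 2578 CPM, or 1.09-fold higher in replicate 1 with TMM. Mir150 was lower, at 1348 and 833 CPM, and Mir146 higher, at 299 and 326 CPM. The remaining markers did not pass with TMM. Mir142 had 70 and 81 reads (log2 ratio 0.47), Mir155 1698 and 1305 CPM (-0.073) and Mir223 88 and 56 reads (-0.38). With total counts 3 of the 5 were lower and 0 higher, against 114 lower and 35 higher of all 321 detected genes. In the edgeR test with the dispersion fixed at 0.01, 0 of the 5 passed. The 2 erythroid markers summed to 163 and 153 CPM, which with TMM is 1.16-fold higher in replicate 2. Mir144 was higher, at 9 and 65 reads, and Mir451a, at 156 and 98.0 CPM, did not pass with TMM but was lower with total counts. The 11 nerve markers summed to 734 and 622 CPM, which with TMM is 1.05-fold higher in replicate 2. Mir132, at 332 and 123 CPM, and Mir138-2, at 35 and 12 reads, were lower, and Mir128-1, at 295 and 420 CPM, was higher. Mir132 was 2.18-fold higher in replicate 1, and Mir138-2 did not pass in the edgeR test. Mir128-1, Mir138-2 and the leukocyte marker Mir146 each share 20 or more bases in a row with another microRNA gene, which makes their counts uncertain. The Mir124a genes, Mir9-2 and Mir9-3 were at 0 in both libraries. The part of these cell types in the difference of the pair was not tested.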

How the data were processed

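The authors deposited whole-number read counts per microRNA gene and library, not normalized, in 3 columns: both strands, and each strand alone. Per the deposited text descriptions, the reads were placed on mm10 and counted over GENCODE M21. Which aligner was used is not given in the sources used here. Of the stranded columns, the one that held more reads in each library served as sense. Leading lines of totals, which name no gene, stayed out of library sizes; of all reads, those aligned to several places were 60.2% and 63.2% in replicates 1 and 2, those unmapped 16.9% and 16.1%, and those in no gene 3.99% and 2.74%. Replicate numbers come from the labels.

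CPM were computed over sense totals. Ratios used TMM factors from edgeR 4.0.16 (R 4.3.3), 1.11 and 0.899 over the detected genes, with 1 CPM added before logs. Each detected gene had a two-sided exact conditional binomial test with Benjamini-Hochberg adjustment at 0.05; with 1 group no test between conditions exists. The steps were tested on simulated libraries that held counting error and planted changes only. Those libraries lack any other spread, so they do not bear on how far the calls hold here. Alternatives included DESeq2 1.42.0 size factors and edgeR's exact test with the dispersion fixed at 0.01, an assumed value. Folds used ViennaRNA 2.7.2; the rest used Python 3.11.15, numpy 2.4.6, pandas 2.3.3 and scipy 1.17.1.

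The members, lists and tests were chosen with earlier results of these data known. Besides the pair, the genes named were by rule the 5 nearest to each member, the 2 next above and below in level, the 5 most abundant on chromosome X, the 3 neighbouring pairs at each end with 100 reads or more, and members of the 2 myogenic lists at 100 CPM or more in mean. Mir351, Mir501, Mir122, Mir133a-1 and the cell type markers named singly were added after their values were seen.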

Additional observations from a re-analysis of the deposited data

How the results depend on the processing

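Both members were lower in replicate 2 and passed the test under all 10 alternatives run for each. Not all of these could change the outcome. The pseudocount of 0.1 CPM does not enter the test, and leaving out the filter or setting it at 10 CPM changes only the adjustment. The log2 ratio ranged from -1.59 to -1.18 for Mir221 and from -1.71 to -1.37 for Mir222, with largest adjusted p-values of 1.4e-06 and 0.0019, both from edgeR's exact test with the dispersion fixed at 0.01. TMM factors from all genes, 1 of these, were added after seeing the data. As CPM of all reads in the file, the mean level of Mir221 was 113 and of Mir222 8.26. Without replicate 1 or 2, the level of Mir221 was 311 or 900 CPM, that of Mir222 20.1 or 68.3 CPM, and the share of Mir221 in the pair 93.9% or 93.0%. The edgeR test called 53 genes in place of 120. Its dispersion was assumed and not estimated from these libraries, so passing it gives no measure of the spread between animals. Calls split evenly in the main test, at 60 lower and 60 higher in replicate 2, but 114 of 149 were lower with total counts, which moved the median log2 ratio to -0.30, and 125 of 158 with all reads as library size. For neighbouring genes the median move in log2 ratio was 0.67 over all pairs, 0.44 at 100 reads or more and 0.74 without shared runs, both chosen after seeing the data. Of 429 recalculations for 45 other named genes, 369 kept direction and side of the threshold, 32 lost the call, 12 gained it and 16 changed sign. With total counts the log2 ratio was -0.11 for Mir125b-1, -0.23 for Mir125b-2, -0.25 for Mir143, -0.00074 for Mir206, -0.094 for Mir361 and -0.041 for Mir98. With all reads as library size it was -0.17, -0.29, -0.32, -0.073, -0.17 and -0.11 for the same genes and -0.00043 for Mir122. With the column of both strands it was 0.026 for Mir214; with TMM factors from all genes it was 0.030 for Mir214 and 0.00049 for Mirlet7f-2. Mir222, with 24 reads in replicate 2, limits the comparison of the pair's proportion.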
